A study of Mus musculus with 6 samples.

Results

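The growth hormone receptor and insulin-like growth factor (IGF) axis was described through 10 genes chosen by symbol: Ghr, Igf1, Igf1r, Igf2r and the binding protein genes Igfbp2 to Igfbp7. Each was found once among the 54385 rows of the count table, and 9 of the 10 passed the filter on low counts. Igfbp2 did not, because it held 0 counts in every library. The rule that names them uses no measured value, but the genes were chosen with earlier results of these data known. RNA was sequenced from interscapular brown adipose tissue (the heat-making fat between the shoulder blades) of chow-fed C57BL/6N mice aged 20 weeks. The 3 ADCY3∆AT libraries came from mice without Adcy3-AT, the shortened form of adenylyl cyclase 3 (the enzyme that makes cyclic AMP) whose expression the title calls cold-induced, and the 3 WT libraries came from wild-type mice (genotype wt/wt). The labels name no drug, diet change or cold exposure that separates the groups. The design text calls the tissue inguinal where each sample's label calls it interscapular. The sources used here do not say whether the knockout acts in every tissue, whether the controls were littermates or whether each library is a separate mouse. The p-values therefore measure the spread between these libraries, which may be technical in part.

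Growth hormone from the pituitary binds its receptor, GHR, which signals through the kinase JAK2 to the transcription factor STAT5. The hormone of this pathway that acts on growth, IGF-1, is made in liver for the blood and also locally, in fat among other tissues. IGF-1 and IGF-2 act through the receptor tyrosine kinase IGF1R, while IGF2R takes IGF-2 up for breakdown, and secreted IGF-binding proteins hold the ligands, carry them and limit their access to the receptor.

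Brown fat of both genotypes held RNA of the growth hormone receptor, of IGF-1, of both IGF receptors and of 5 binding proteins, and none of the 9 tested genes was called different in ADCY3∆AT by edgeR's quasi-likelihood test at a Benjamini-Hochberg adjusted p under 0.05. Over all 14332 genes tested, 4.30% were called (2.63% higher and 1.67% lower). DESeq2 called 1 of the 9, Igf1, against 7.68% of genes, and limma-voom called 0 against 3.66%. The values behind this count differ from gene to gene. Igf1 was lowest in the 3 ADCY3∆AT libraries and Igfbp6 highest in them, yet neither passed. Igfbp3 varied more among the ADCY3∆AT libraries than between genotypes, and Ghr, Igf1r, Igf2r, Igfbp4 and Igfbp7 each had a 95% interval within 1.5-fold either way (5 of the 9). In the list of other genes of the pathway, Cish, which holds back growth hormone signalling, fell 10.3-fold.

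Promoter sequence is shown for 3 genes on which these results turn, with matches to the STAT5-type motif TTCNNNGAA in capitals: Igf1 and Cish, which are textbook growth hormone targets, and Igfbp6, the member with the smallest p. Each window holds 250 bases before and 50 after a RefSeq start site in GRCm38.p6, written 5′ to 3′ on the gene's strand. Igf1 lies at chr10:87860861-87861160, Igfbp6 at chr15:102143936-102144235 and Cish at chr9:107296409-107296708, all on the plus strand.
Igf1: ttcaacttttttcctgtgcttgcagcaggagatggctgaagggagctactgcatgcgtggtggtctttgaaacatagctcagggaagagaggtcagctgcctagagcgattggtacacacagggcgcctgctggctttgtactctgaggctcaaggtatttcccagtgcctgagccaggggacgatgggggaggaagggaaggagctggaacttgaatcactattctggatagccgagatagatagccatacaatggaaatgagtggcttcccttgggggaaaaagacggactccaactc
Igfbp6: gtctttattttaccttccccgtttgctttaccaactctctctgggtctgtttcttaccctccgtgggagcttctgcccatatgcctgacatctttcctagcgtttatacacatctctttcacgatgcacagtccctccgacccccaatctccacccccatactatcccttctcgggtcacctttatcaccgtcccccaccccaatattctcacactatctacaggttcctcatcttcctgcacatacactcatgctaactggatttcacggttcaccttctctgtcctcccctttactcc
Cish: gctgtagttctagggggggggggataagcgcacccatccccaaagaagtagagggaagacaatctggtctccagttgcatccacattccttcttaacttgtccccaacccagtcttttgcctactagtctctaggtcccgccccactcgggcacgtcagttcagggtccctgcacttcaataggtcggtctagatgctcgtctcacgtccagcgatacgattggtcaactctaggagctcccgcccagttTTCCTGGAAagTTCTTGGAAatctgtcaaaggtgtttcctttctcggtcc
The Cish window holds 2 such matches close to each other at its start site. Windows were found for all 10 members (12 in all, since Ghr and Igfbp2 have 2 each), and 0 of the 12 held TTCNNNGAA, a motif that 8.3% of 32851 windows of the same length held. The cyclic AMP response element TGACGTCA was in 0 of the 12 windows and in 1.79% of all windows. Both motifs read the same on either strand. A match is a string of letters and not a measured site. No match says only that these letters are not in this window, and Igf1 has 8 annotated transcripts, not all of which start here: the window lies inside the GENCODE gene, and that of Igfbp6 ends before its GENCODE start.

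The tissue and genotype labels were checked first. Library totals were 14799779 to 19592156 estimated counts in ADCY3∆AT and 13758492 to 17489589 in WT. Ucp1, the uncoupling protein that defines brown fat, held 4028 to 4486 CPM (counts relative to library size, scaled by the trimmed mean of M-values, TMM) in ADCY3∆AT and 3679 to 5432 CPM in WT, and edgeR called 0 of 8 brown adipocyte markers (2 at an unadjusted p under 0.05). DESeq2 called 1 of them, Ppargc1a, the coactivator of mitochondrial genes, named after its values were seen. It held 26.2, 41.2 and 47.9 CPM in ADCY3∆AT and 22.2, 21.8 and 13.6 CPM in WT (log2 fold change 1.01, DESeq2 adjusted p = 0.000408, edgeR adjusted p = 0.0609). The Adcy3 row had 167.5 to 239.8 CPM in ADCY3∆AT and 166.3 to 247.7 CPM in WT. A row without a gene symbol, ENSMUSG66666620654, whose identifier ends in the same digits as that of Adcy3, held 0 to 1.27 CPM in ADCY3∆AT and 117.9 to 214.6 CPM in WT. WT replicate 3 stood apart in skeletal muscle markers, whose summed level over 10 genes was 1.27 to 2.75 CPM in ADCY3∆AT and 22.1, 110.4 and 653.7 CPM in WT replicates 1, 2 and 3. Of the 8 tested, edgeR called 7 lower in ADCY3∆AT, DESeq2 called all (adjusted p 1.18e-08 to 0.046) and limma-voom called 0. Those with the smallest p in edgeR were the myosin gene Myh4, also the highest in mean CPM, the calcium pump gene Atp2a1 and the troponin gene Tnni2. ADCY3∆AT replicate 1 stood apart in some endothelial genes, as given with Igfbp3.

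The receptor of growth hormone was the most abundant of the 4 receptor and ligand genes. Ghr (ENSMUSG00000055737, chromosome 15, 3317760 to 3583492, minus strand of GRCm38) held 173.2, 157.4 and 176.9 CPM in ADCY3∆AT replicates 1, 2 and 3 and 143.5, 141.1 and 183.4 CPM in WT replicates 1, 2 and 3. The groups overlapped, since WT replicate 3 was above every ADCY3∆AT library. The log2 fold change (ADCY3∆AT minus WT) was 0.12 (SE 0.11, 95% limits -0.13 and 0.37, adjusted p = 0.572 by edgeR), so the fold lay between 0.912 and 1.29. A two-sided exact permutation test gave p = 0.4, and with 3 libraries against 3 it cannot go below 0.1. The value was 0.25 without WT replicate 3 and 0.05 without WT replicate 2.

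Igf1, the ligand, was lower in each ADCY3∆AT library than in any WT library, but most of the difference came with 1 WT library. Igf1 (ENSMUSG00000020053, chromosome 10, 87858265 to 87937042, plus strand) held 16.7, 15.9 and 19.5 CPM in ADCY3∆AT and 21.9, 21.1 and 43.6 CPM in WT. WT replicate 3 held about as much as both other WT libraries together. Means were 17.4 ± 1.90 CPM in ADCY3∆AT and 28.9 ± 12.7 CPM in WT (SD, n = 3 each). The log2 fold change was -0.74 (SE 0.26, 95% limits -1.34 and -0.13), with edgeR adjusted p = 0.15 and limma-voom adjusted p = 0.193. DESeq2 gave an adjusted p of 0.0365. Without WT replicate 3 the log2 fold change was -0.30 (edgeR adjusted p = 0.204) and DESeq2 gave -0.30 (adjusted p = 0.36). The exact permutation test gave its smallest p, 0.1. Libraries did not overlap between genotypes for 2 of the 9 tested members, Igf1 and Igfbp6, against 29.0% of all genes tested (15.1% with ADCY3∆AT higher and 13.9% with it lower).

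Other genes also peaked in WT replicate 3, and their part in the Igf1 value was not tested. Markers of macrophages, a known source of Igf1, summed over 9 genes to 59.8, 93.5 and 107.2 CPM in ADCY3∆AT and 59.2, 68.4 and 108.9 CPM in WT, with 0 of 9 called. The highest macrophage sum of each genotype was in its replicate 3, where Igf1 held 19.5 CPM in ADCY3∆AT and 43.6 CPM in WT. The part of macrophages in the Igf1 value was not tested. Lyz2, the macrophage marker with the highest mean CPM, was not called (log2 0.09, edgeR adjusted p = 0.893). Markers of adipocytes summed over 8 genes to 12000 to 12970 CPM in ADCY3∆AT and 13130 to 16240 CPM in WT, the highest again in WT replicate 3. Fabp4 was the largest part of that sum (means of 6803 CPM in ADCY3∆AT and 7776 CPM in WT). Some of the 8 genes were highest in WT replicate 1 or 2 instead. Of these, 1 of 8 was called, Lep, the hormone leptin of white fat, with 7.49, 4.98 and 11.4 CPM in ADCY3∆AT and 31.7, 19.6 and 62.5 CPM in WT (log2 fold change -2.24, SE 0.44, edgeR adjusted p = 0.0312, limma-voom adjusted p = 0.0576). Fabp4, the adipocyte marker with the highest mean CPM, was not called (log2 -0.19, edgeR adjusted p = 0.316). Fewer cells of a type and less RNA per cell cannot be told apart in whole tissue.

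**Figure D1:**
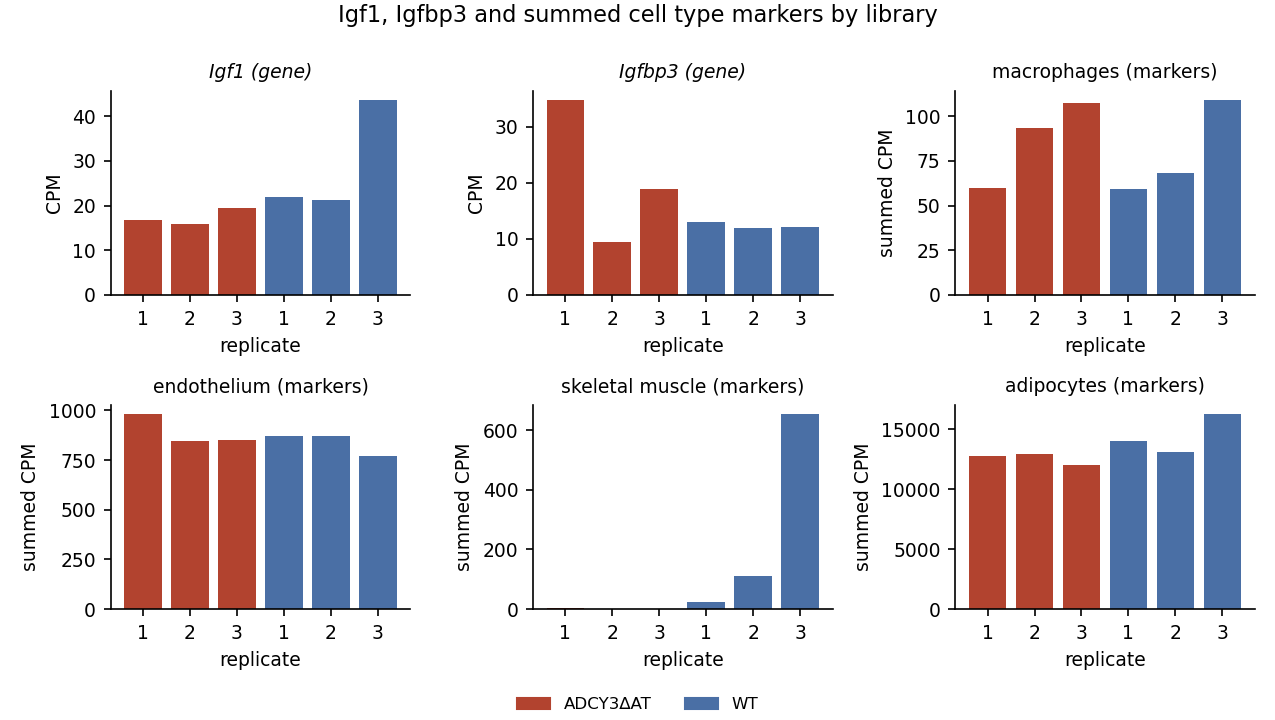
CPM of Igf1 and of Igfbp3, and summed CPM of 4 marker lists, in each library (bars, replicates 1 to 3 of ADCY3∆AT on the left and of WT on the right, linear axes from 0). Igf1 and the skeletal muscle markers are highest in WT replicate 3, macrophage markers are about as high in ADCY3∆AT replicate 3 as in WT replicate 3, and Igfbp3 and the endothelial markers are highest in ADCY3∆AT replicate 1.

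Both IGF receptors were close to equal in the genotypes. Igf1r, the signalling receptor (ENSMUSG00000005533, chromosome 7, 67952827 to 68233668, plus strand), held 11.3, 13.95 and 12.5 CPM in ADCY3∆AT and 11.95, 12.05 and 13.2 CPM in WT. The ADCY3∆AT libraries lay on both sides of the WT ones, and the log2 fold change was 0.02 (SE 0.11, 95% limits -0.23 and 0.27, adjusted p = 0.937 by edgeR). Its sign turned with upper-quartile scaling (-0.02), so it carries no direction. Igf2r, the clearance receptor, which also sorts lysosomal enzymes (ENSMUSG00000023830, chromosome 17, 12682406 to 12769664, minus strand), held 50.5, 48.4 and 55.7 CPM in ADCY3∆AT and 45.8, 49.3 and 45.2 CPM in WT. Only WT replicate 2 overlapped with the ADCY3∆AT libraries, and the log2 fold change was 0.14 (SE 0.08, 95% limits -0.04 and 0.32, adjusted p = 0.34 by edgeR), or 0.08 without ADCY3∆AT replicate 3. Airn, the noncoding RNA that runs antisense into Igf2r and silences its paternal copy in mouse, held 1.76 to 2.02 CPM in ADCY3∆AT and 1.55 to 2.20 CPM in WT. The sources used here do not say whether strand was kept in the counting, but Airn and Igf2r share 0 exonic bases.

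**Figure D2:**
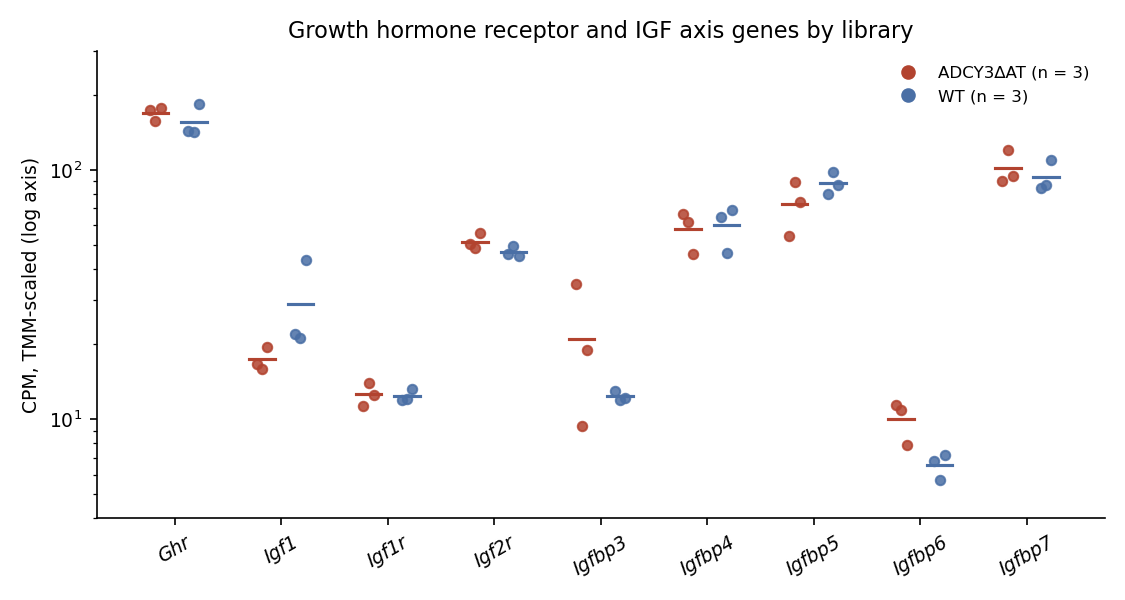
Level of the 9 genes with counts in each library (CPM, TMM-scaled, log axis), with ADCY3∆AT in red on the left of each pair, WT in blue on the right, points for libraries and lines for the mean of 3. Igf1 and Igfbp6 are the genes whose libraries do not overlap, and Igfbp3 spreads from 9.43 to 34.7 CPM within ADCY3∆AT.

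The binding proteins summed to similar levels in both genotypes, while single ones had higher or lower means in ADCY3∆AT. Their summed level was 257.2, 290.9 and 241.7 CPM in ADCY3∆AT and 248.9, 248.8 and 284.7 CPM in WT, with means of 263.3 ± 25.2 CPM in ADCY3∆AT and 260.8 ± 20.7 CPM in WT (SD, n = 3 each). Counts grow with transcript length, so shares of this sum describe reads and not molecules. Igfbp7 took 38.5 ± 3.1% of the sum in ADCY3∆AT and 35.7 ± 2.4% in WT, and Igfbp5 took 27.5 ± 5.5% in ADCY3∆AT and 34.1 ± 4.8% in WT. Igfbp4 took 22.0 ± 3.5% in ADCY3∆AT and 23.0 ± 3.9% in WT. The rest was Igfbp3 with 8.2 ± 5.1% in ADCY3∆AT and 4.76 ± 0.47% in WT, and Igfbp6 with 3.81 ± 0.61% in ADCY3∆AT and 2.52 ± 0.22% in WT.

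Igfbp6 had the smallest p of the members. It encodes the binding protein that prefers IGF-2 over IGF-1 (ENSMUSG00000023046, chromosome 15, 102144362 to 102149511, plus strand). It held 11.4, 10.9 and 7.85 CPM in ADCY3∆AT and 6.79, 5.69 and 7.21 CPM in WT, so that ADCY3∆AT replicate 3 lay just above WT replicate 3. Means were 10.1 ± 1.94 CPM in ADCY3∆AT and 6.57 ± 0.787 CPM in WT (SD, n = 3 each). The log2 fold change was 0.61 (SE 0.17, 95% limits 0.21 and 1.01), with edgeR adjusted p = 0.0913, DESeq2 adjusted p = 0.0617 and limma-voom adjusted p = 0.126. Without ADCY3∆AT replicate 3 it was 0.76, which DESeq2 called (adjusted p = 0.0142) and edgeR did not (adjusted p = 0.0519). Of the 9 tested members, 2 (Igf1 and Igfbp6) had an unadjusted p under 0.05, against 22.6% of all genes tested. The ligand that IGFBP6 prefers, Igf2, held 13.5, 12.75 and 14.98 CPM in ADCY3∆AT and 14.2, 14.6 and 12.4 CPM in WT (log2 fold change 0.01, SE 0.11). Igfbp6 is made by fibroblasts and by Schwann cells, among others. Fibroblast markers summed over 12 genes to 329.8 to 551.1 CPM in ADCY3∆AT and 371.5 to 584.4 CPM in WT with 0 of 11 tested called, Col3a1 being the highest (log2 -0.20, edgeR adjusted p = 0.685). Schwann cell markers summed over 6 genes to 149.1, 119.7 and 89.6 CPM in ADCY3∆AT and 91.0, 83.6 and 87.0 CPM in WT with 0 of 6 called by edgeR and 4 at an unadjusted p under 0.05, S100b having the highest mean CPM (log2 0.03, edgeR adjusted p = 0.892). The order of the Schwann cell sums among the ADCY3∆AT libraries was that of Igfbp6. In WT the orders differed, with the Schwann cell sum highest in replicate 1 and Igfbp6 highest in replicate 3. The part of Schwann cells in the Igfbp6 value was not tested.

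Igfbp3, the main carrier of IGF-1 in blood, was uneven among the ADCY3∆AT libraries (ENSMUSG00000020427, chromosome 11, 7206086 to 7213923, minus strand). It held 34.7, 9.43 and 18.9 CPM in ADCY3∆AT and 13.0, 11.9 and 12.2 CPM in WT. Replicate 1 of ADCY3∆AT was the highest of all 6 libraries and replicate 2 the lowest, while the WT libraries lay close together. The log2 fold change was 0.77 (SE 0.38, 95% limits -0.10 and 1.65, adjusted p = 0.275 by edgeR). It was 0.22 without ADCY3∆AT replicate 1 and 1.12 without ADCY3∆AT replicate 2 (edgeR adjusted p = 0.0755, DESeq2 adjusted p = 0.00142). In adipose tissue Igfbp3 is expressed in vessel cells among others. Endothelial markers summed over 11 genes to 980.1, 845.0 and 849.0 CPM in ADCY3∆AT and 873.0, 870.2 and 770.7 CPM in WT. Of these 0 of 11 were called by edgeR, with 7 at an unadjusted p under 0.05, of which 4 were higher in ADCY3∆AT (Flt1, Tie1, Esam and Cldn5) and 3 lower (Kdr, Emcn and Egfl7). DESeq2 called Flt1 higher and Egfl7 lower (adjusted p = 0.0436 each). The defining endothelial gene Cdh5, also the one with the highest mean CPM, held 184.8, 178.1 and 174.4 CPM in ADCY3∆AT and 188.2, 193.3 and 174.7 CPM in WT. Cldn5, a tight junction protein picked after its values were seen, held 58.5, 20.3 and 17.9 CPM in ADCY3∆AT and 11.9, 14.0 and 14.7 CPM in WT, and was thus highest in the same library as Igfbp3. Kdr, Emcn and Egfl7, also named after their values were seen, were lowest in that library, with 87.8, 16.9 and 65.9 CPM. The part of that library's other differences in the Igfbp3 value was not tested.

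Igfbp5, Igfbp4 and Igfbp7 were the abundant binding proteins and overlapped between genotypes. Igfbp5, which binds extracellular matrix (ENSMUSG00000026185, chromosome 1, 72857932 to 72874884, minus strand), held 54.4, 89.1 and 74.4 CPM in ADCY3∆AT and 80.0, 98.2 and 87.0 CPM in WT. Its mean was lower in ADCY3∆AT, with replicate 2 inside the WT range, and the log2 fold change was -0.29 (SE 0.16, 95% limits -0.66 and 0.09, adjusted p = 0.348 by edgeR). It was -0.10 without ADCY3∆AT replicate 1 and -0.45 without ADCY3∆AT replicate 2, not called either way. Igfbp4, an inhibitor of IGF action that the protease PAPP-A cleaves (ENSMUSG00000017493, chromosome 11, 99041244 to 99054392, plus strand), held 66.4, 61.5 and 46.0 CPM in ADCY3∆AT and 64.8, 46.4 and 69.0 CPM in WT. Each genotype had 1 library near 46 CPM and 2 above 61 CPM, and the log2 fold change was -0.06 (95% limits -0.45 and 0.34, adjusted p = 0.887 by edgeR). Igfbp7, a low-affinity member known from vessel basement membranes (ENSMUSG00000036256, chromosome 5, 77349240 to 77408041, minus strand), held 90.3, 120.0 and 94.7 CPM in ADCY3∆AT and 84.2, 86.5 and 109.4 CPM in WT. In each genotype 1 library was well above the other two, and the log2 fold change was 0.12 (95% limits -0.19 and 0.43, adjusted p = 0.641 by edgeR). Polr2b, on the opposite strand, shares 85 exonic bases with Igfbp7 at its 3′ end and held 35.7 to 37.9 CPM in ADCY3∆AT and 29.9 to 39.4 CPM in WT, so reads of those bases cannot be assigned without strand. Mural cell markers, the other vessel cells listed, summed over 10 genes to 712.9 to 767.2 CPM in ADCY3∆AT and 635.6 to 743.0 CPM in WT. Of these, 1 of 10 was called by edgeR, Cspg4, a pericyte proteoglycan, at 70.1 ± 2.96 CPM in ADCY3∆AT and 102.5 ± 7.19 CPM in WT (SD, n = 3 each; log2 fold change -0.55, edgeR adjusted p = 0.00933). Rgs5, the mural marker with the highest mean CPM, was not called by edgeR (log2 0.32, adjusted p = 0.102; DESeq2 adjusted p = 0.0462), and DESeq2 also called Kcnj8 lower (log2 -0.43, adjusted p = 0.0397).

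**Figure D3:**
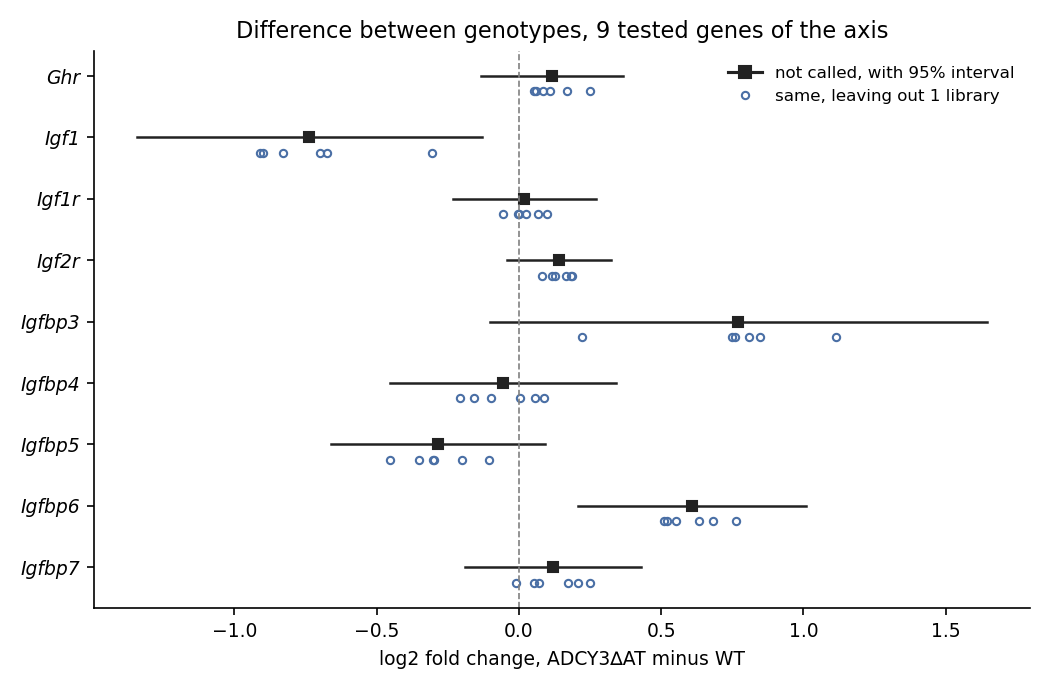
Log2 fold change (ADCY3∆AT minus WT) of the 9 tested members, with squares and lines for the edgeR estimate and its 95% interval and open circles for the 6 estimates that leave out 1 library each. The intervals of Igf1 and Igfbp6 miss 0 before adjustment for all genes tested, and the circle of Igf1 nearest 0, at -0.30, is the fit without WT replicate 3.

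Igfbp2, which encodes a binding protein secreted by liver among other tissues (ENSMUSG00000039323, chromosome 1, 72824503 to 72852474, plus strand), was at 0 counts in all 6 libraries. A count of 0 allows up to 3 counts, or 0.152 to 0.199 CPM per library in ADCY3∆AT and 0.169 to 0.222 CPM in WT, for counting error only. It is the neighbour of Igfbp5 on chromosome 1, on the opposite strand and 5.46 kb away. A second such pair lies on chromosome 11, where Igfbp1 and Igfbp3 are 3.54 kb apart on opposite strands. Igfbp1, a liver-made binding protein that is not one of the 10 genes, had 0 counts in each ADCY3∆AT library and 1, 0 and 0 counts in WT. Igfbp5 and Igfbp3 were detected in every library.

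**Figure D4:**
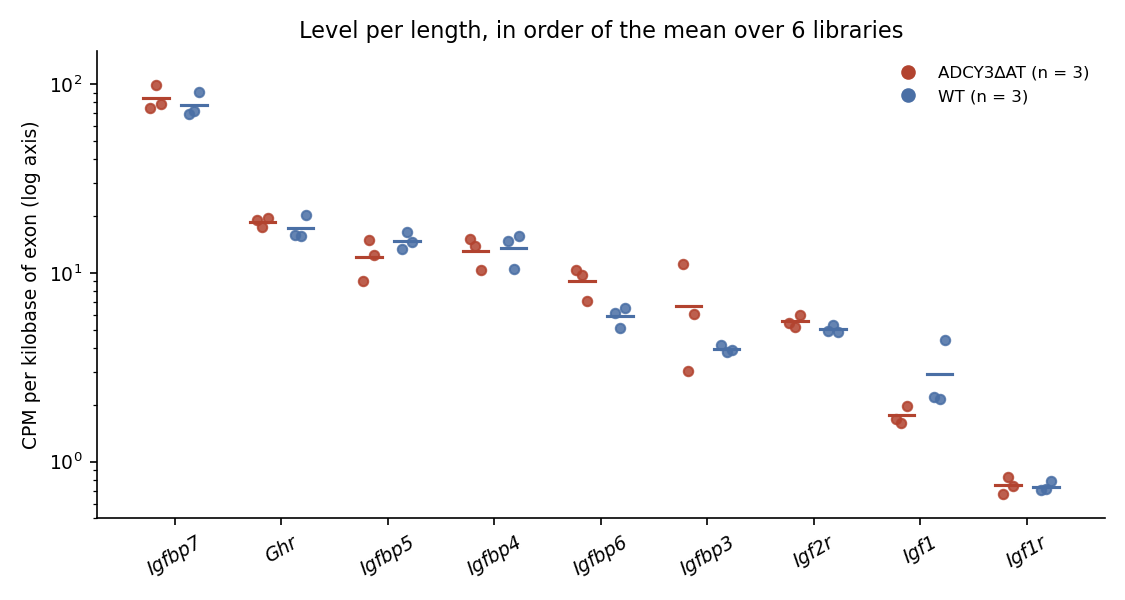
Level per length of the 9 genes with counts (CPM per kilobase of exon, log axis), ordered by the mean over 6 libraries, with ADCY3∆AT in red on the left of each pair and WT in blue on the right, points for libraries and lines for the mean of 3. Igfbp7 stands above the others and Igf1r below them, and most neighbours in between overlap.

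Per kilobase of exon, Igfbp7 was at the top and Igf1r at the bottom of the 9 genes with counts in every library. CPM were divided by the length of all annotated exons of a gene, which need not be the form made in brown fat. Igfbp7 had 84.1 ± 13.3 CPM per kilobase in ADCY3∆AT and 77.2 ± 11.5 in WT (SD, n = 3 each), and its mean over the 6 libraries was at the 96.6th percentile of all genes tested. Ghr followed with 18.7 ± 1.15 CPM per kilobase in ADCY3∆AT and 17.2 ± 2.63 in WT (percentile 86.6). Igfbp5, at 12.1 ± 2.90 CPM per kilobase in ADCY3∆AT and 14.7 ± 1.53 in WT, and Igfbp4, at 13.1 ± 2.42 in ADCY3∆AT and 13.6 ± 2.72 in WT, did not differ beyond their spread, and the highest libraries of both reached the lowest of Ghr. Igfbp6, Igfbp3 and Igf2r came next, with means over the 6 libraries of 7.48, 5.33 and 5.28 CPM per kilobase and ranges that overlapped. Igfbp6 also reached the lowest library of Igfbp5. Igfbp3 in ADCY3∆AT replicate 1 (11.1) lay above the lowest libraries of Igfbp5 (9.05) and Igfbp4 (10.4). The lowest libraries of Igfbp3 lay below the highest of Igf1. The mean of Igfbp3 lay above that of Igf2r in ADCY3∆AT (6.71 and 5.54 CPM per kilobase) and below it in WT (3.95 and 5.03). The order in ADCY3∆AT rested on replicate 1 (11.1 and 5.43). Igfbp3 was below Igf2r in replicate 2 (3.01 and 5.20) and about equal in replicate 3 (6.03 and 5.99). Igf1 had 1.75 ± 0.19 CPM per kilobase in ADCY3∆AT and 2.91 ± 1.29 in WT (percentile 45.7). Igf1r had 0.750 ± 0.078 CPM per kilobase in ADCY3∆AT and 0.738 ± 0.041 in WT (percentile 22.6). No library of Igf1 reached the lowest of Igf2r, and none of Igf1r reached the lowest of Igf1. Igfbp3 was the most uneven member, with its highest library 3.68-fold above its lowest, and Igf1r and Igf2r the most even, with 1.23-fold each.

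The genes whose pattern over the 6 libraries was most like that of Ghr were Paip2b and Sap18, by the root mean square difference of log2(CPM + 0.5) profiles centred on their means, among 7659 genes with a mean CPM of at least 10. The difference was 0.03 and 0.04 on the log2 scale. Those most like Igf1 were Mmd2 (0.13) and Pxmp2 (0.17). Mmd2 held 10.8, 12.2 and 13.7 CPM in ADCY3∆AT and 17.5, 13.2 and 28.7 CPM in WT. Like Igf1, both were highest in WT replicate 3. No member was called, so the rule took Ghr and Igf1.

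The other genes of the pathway came from a list of 42 in 7 groups, of which 33 were tested, 1 rose, 2 fell and 30 were not called. That is 3 of 33 against 4.30% of all genes tested. The list was chosen with earlier results of these data known, so the 2 shares are set side by side without a test. Their median log2 fold change was 0.01, that of the 9 members was 0.12 and that of all genes tested was -0.01. The called genes were Cish, Pik3r1 and Pik3ca.

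Negative regulators of growth hormone signalling held the largest difference. Cish, an SH2 protein that STAT5 induces and that then dampens the receptor (ENSMUSG00000032578), held 20.4, 5.45 and 8.91 CPM in ADCY3∆AT and 87.5, 136.4 and 137.0 CPM in WT. Every ADCY3∆AT library was far below every WT library. The log2 fold change was -3.37 (SE 0.41, with 95% limits -4.31 and -2.42, adjusted p = 0.00614 by edgeR), and the call held in all 6 fits without 1 library, from -4.03 to -3.04. The related suppressors were not called by edgeR. Socs2, another STAT5 target, held 24.0, 6.18 and 10.6 CPM in ADCY3∆AT and 11.5, 9.09 and 14.8 CPM in WT (log2 fold change 0.21, 95% limits -0.76 and 1.18, adjusted p = 0.818 by edgeR). Socs3 held 11.4, 6.51 and 1.87 CPM in ADCY3∆AT and 2.09, 2.36 and 3.04 CPM in WT (log2 fold change 1.39, edgeR adjusted p = 0.186, DESeq2 adjusted p = 0.0415). Both were highest in ADCY3∆AT replicate 1, and both were named after their values were seen. Of 5 tested in the group 1 fell and 4 were not called.

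Upstream of them, 0 of 7 genes of receptor signalling were called by edgeR and 0 had an unadjusted p under 0.05. Jak2 held 17.8, 16.4 and 17.2 CPM in ADCY3∆AT and 16.2, 18.9 and 14.0 CPM in WT. Stat5b held 54.4, 58.9 and 58.1 CPM in ADCY3∆AT and 57.7, 59.0 and 46.8 CPM in WT. The smallest p in the group was that of Sh2b2, an adaptor of JAK2 (log2 fold change -0.16, edgeR adjusted p = 0.374). Jak2 and Stat5b were named after their values were seen.

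Downstream of the insulin and IGF receptors, 1 of 11 tested genes rose and 1 fell, and both encode subunits of phosphoinositide 3-kinase. Pik3r1, the regulatory subunit p85, held 81.7, 46.0 and 92.9 CPM in ADCY3∆AT and 185.1, 197.6 and 249.9 CPM in WT. It was 2.86-fold lower (log2 fold change -1.52, SE 0.24, 95% limits -2.06 and -0.98, adjusted p = 0.0144 by edgeR), a call that ended without WT replicate 3 (-1.38, adjusted p = 0.052) and with robust quasi-likelihood (adjusted p = 0.0597). Pik3ca, the catalytic subunit p110, held 37.9, 39.6 and 42.2 CPM in ADCY3∆AT and 33.2, 30.3 and 29.3 CPM in WT. It was 1.29-fold higher (log2 fold change 0.37, SE 0.08, edgeR adjusted p = 0.0463), and in edgeR that call ended on leaving out any 1 library (0.33 to 0.42) and with upper-quartile scaling (adjusted p = 0.0625), library size alone (0.0527) and limma-voom (0.0513). Insr, the insulin receptor, picked after its values were seen, held 94.9, 84.4 and 82.1 CPM in ADCY3∆AT and 73.3, 77.9 and 67.5 CPM in WT (log2 fold change 0.26, edgeR adjusted p = 0.123). Its libraries did not overlap, and it was not called.

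Genes that free or carry the ligands were not called. Among 5 tested proteases and inhibitors, Stc1, which blocks PAPP-A and its cleavage of binding proteins, held 3.30, 2.39 and 2.18 CPM in ADCY3∆AT and 1.31, 1.70 and 0.845 CPM in WT (log2 fold change 1.05, 95% limits 0.32 and 1.77, adjusted p = 0.103 by edgeR). Pappa itself was near 1 CPM or below, with 0.550 to 1.06 CPM in ADCY3∆AT and 0.620 to 0.961 CPM in WT. Igfals, the acid-labile subunit that joins IGF-1 and IGFBP3 in serum, held 8.81, 9.30 and 13.6 CPM in ADCY3∆AT and 16.6, 9.68 and 21.7 CPM in WT (log2 fold change -0.60, edgeR adjusted p = 0.25). Among the 2 tested cell surface partners of binding proteins, the smaller p belonged to Lrp1 (log2 0.26, edgeR adjusted p = 0.171). Of the genes for IGF mRNA-binding proteins only Igf2bp2 was tested (log2 0.22, edgeR adjusted p = 0.552). Lymphocyte markers were at most 3.06 summed CPM in an ADCY3∆AT library and 3.16 in a WT library over 7 genes, and Cd79a, the 1 tested, was not called (edgeR adjusted p = 0.747).

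**Figure D5:**
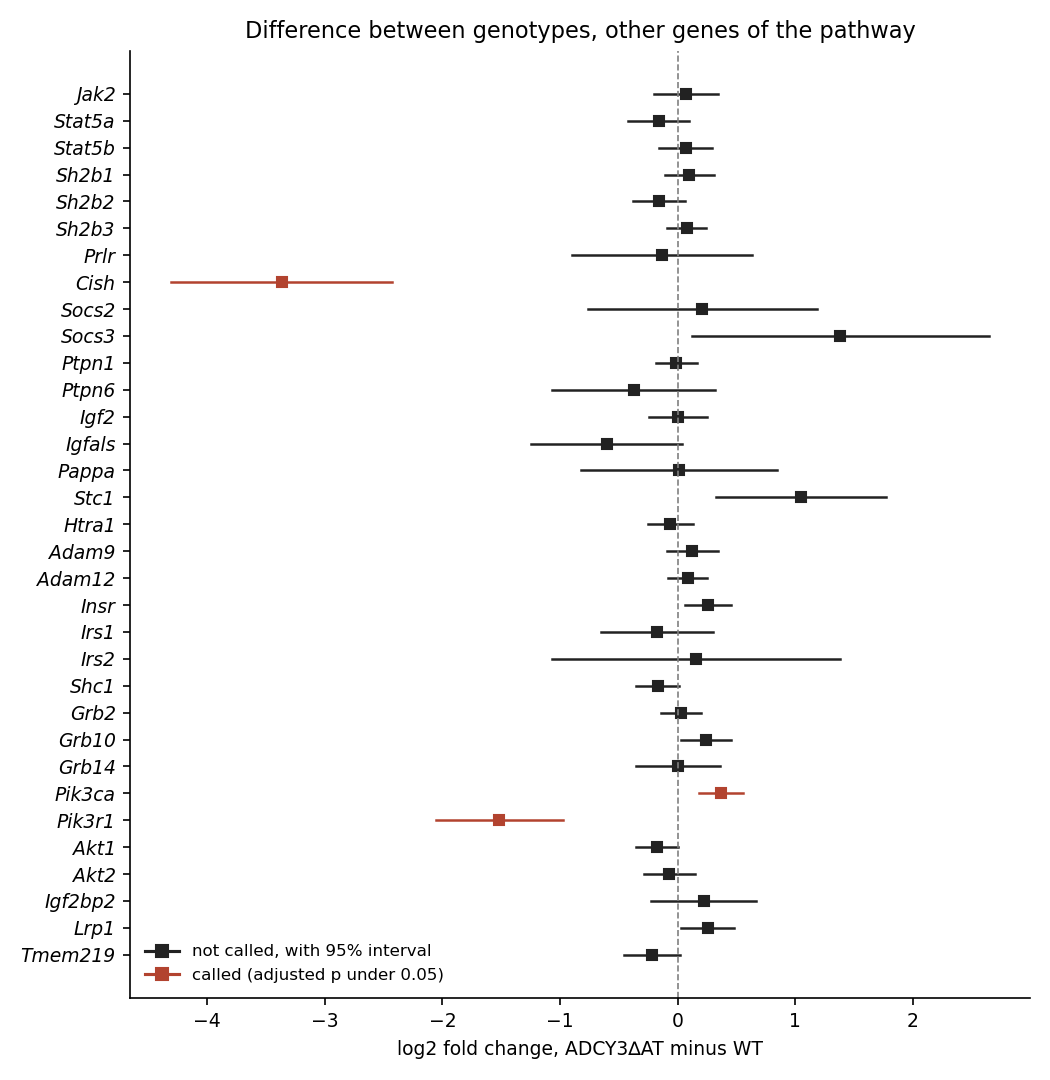
Log2 fold change (ADCY3∆AT minus WT) of the 33 tested genes of the pathway list, with squares for the edgeR estimate, lines for its 95% interval and red for called genes (adjusted p under 0.05). Cish (-3.37) and Pik3r1 (-1.52) lie far to the left, Pik3ca (0.37) just right of 0, and the wide intervals belong to genes that vary between libraries, such as Socs2, Socs3 and Irs2.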

How the data were processed

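The values, as the authors deposited them, are estimated counts in 1 table (54385 rows, 6 libraries); the submitters' processing notes name GRCm38, StringTie, Salmon and edgeR, without versions. Poly(A) RNA was sequenced from both fragment ends after NEBNext Ultra II library preparation, per the labels' protocols. The description of each sample gave its column. GENCODE M21 gave symbols for 54131 rows. Counts were rounded, filtered with filterByExpr (minimum count 10, minimum total 15), scaled by TMM and compared with edgeR 4.0.16 in R 4.3.3 (quasi-likelihood F test, two-sided, no covariate, 14332 genes). The script was tested on simulated counts. SE came from the F statistic, and exact permutation tests used log2(CPM + 0.5). DESeq2 1.42.0 and limma 3.58.1 were alternatives, as were other scalings and filters, a replicate block and leaving out each library. Leaving out libraries in DESeq2 was added after seeing the data. No 2 libraries of a genotype were duplicates (chi-square per gene 6.18 to 26.8).

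Named genes were the 10 members, called pathway genes or the 1 with the smallest p of a group, called markers (at most 3 a list) and the highest marker of each list, and the 2 genes most like Ghr and Igf1. Named beside these after their values were seen were Socs2, Socs3, Jak2, Stat5b, Insr, Igf2, Pappa, Ppargc1a, Kcnj8, Igfbp1, overlapping genes and endothelial markers other than Cdh5. Unless another tool is named, a called gene is one called by edgeR. The members and lists were chosen with earlier results of these data known. Library totals of 13758492 to 19592156 give Igfbp6, the least abundant tested member, 77 to 208 counts. Intervals cover the spread between libraries. The floor of 3 counts covers counting error only.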

Additional observations from a re-analysis of the deposited data

How the results depend on the processing

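None of the 10 genes was called with DESeq2 size factors, upper-quartile factors, library size alone, limma-voom, robust quasi-likelihood, a filter of CPM above 1 in 3 libraries, the replicate block, or without any 1 library in edgeR. DESeq2 called 1 (Igf1, -0.73, adjusted p = 0.0365) and, leaving out each library, 0 to 1: Igf1 without WT replicate 2 (-0.91), Igfbp3 without ADCY3∆AT replicate 2 (1.12) and Igfbp6 without ADCY3∆AT replicate 3 (0.76). The ranges were -0.91 to -0.30 for Igf1, 0.20 to 1.12 for Igfbp3 and 0.50 to 0.76 for Igfbp6. Without a filter on low counts, edgeR called 3 (Igf1 -0.71, Igfbp3 0.80 and Igfbp6 0.63), 7 other pathway genes and 1951 genes in all. That fit took in 34083 rows, and its prior degrees of freedom were infinite, against 4.34 with the filter. Each gene thus took the spread fitted for genes of its level, with no estimate of its own.

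The count over all genes, 616, was 993 with DESeq2, 324 with the replicate block and 162 to 461 in edgeR without 1 library (556 to 832 in DESeq2). Other pathway genes called were 3, and 1 to 3 in edgeR without 1 library. They were 4 with DESeq2. With upper-quartile factors, library size alone, limma-voom, robust quasi-likelihood or the replicate block they were 2. Signs turned for Igf1r with upper-quartile factors (-0.019). Under that scaling the median log2 fold change of all genes was -0.0451, against -0.0067 in the main fit. Without 1 library in edgeR, the range was -0.0542 to 0.0983 for Igf1r, -0.207 to 0.0899 for Igfbp4 and -0.0116 to 0.250 for Igfbp7. In DESeq2, Igf1r was -0.0512, -0.00405 and -0.00104 without ADCY3∆AT replicate 2, WT replicate 1 and WT replicate 2, Igfbp4 was 0.0891, 0.00691 and 0.0582 without ADCY3∆AT replicate 3, WT replicate 1 and WT replicate 3, and Igfbp7 was -0.00849 without ADCY3∆AT replicate 2. The cause was not tested. The Igfbp3 share of the binding protein sum in ADCY3∆AT, 8.18%, was 5.53% without replicate 1 and 10.65% without replicate 2. Over all genes, same-numbered libraries of the 2 genotypes did not deviate together (correlation across genes -0.01, 0.01 and -0.05). A value over all genes cannot exclude a link that touches some of them. Summed fibroblast markers rose with the number in both genotypes (329.8, 447.9 and 551.1 CPM in ADCY3∆AT, 371.5, 448.2 and 584.4 CPM in WT). Macrophage markers did so too, and the other marker sums did not. Whether the numbers stand for a pairing or a batch was not tested. With the replicate block the log2 fold changes of Igf1, Igfbp3 and Igfbp6 were -0.67, 0.63 and 0.60, and the Pik3ca call was lost (0.37, adjusted p = 0.107). With 3 libraries a genotype, the 95% intervals allow changes up to 3.13-fold for Igfbp3.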
